A study of Mus musculus with 24 samples.

Results

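Tissue identity was examined in the brain and liver of first-generation cumulus-cell clones, labelled CC, which are mice grown from oocytes that received the nucleus of a cumulus cell, one of the somatic cells around an oocyte. The set comprised 8 of the 24 single-colour Agilent arrays of the series and was chosen by sample title, with 4 brains and 4 livers, CC 1 to 4 in each tissue. All animals were female neonates of the cross that the labels write as (C57BL/6 x DBA2) x 129/Sv, and no treatment or engineered allele is listed for any group. Brain and liver of one number carry the same source name and were taken as 1 animal; the sources used here do not say whether the 4 clones share a nuclear donor. The other 16 arrays hold the same 2 tissues of 4 controls conceived by injection of a sperm into an oocyte (ICSI, labelled NC) and of 4 clones from generation 20 of serial cloning, begun with a cumulus cell (G20), and serve here only for comparison. By its title the study concerned errors of reprogramming and serial cloning.

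The newborn brain is made up largely of neurons that have stopped dividing, beside radial glia, astrocytes and oligodendrocytes at an early stage of maturation. The newborn liver has 2 jobs: hepatocytes that export most proteins of the blood plasma and are taking over sugar, nitrogen and fat metabolism from the placenta, and islands of blood-forming cells that leave for the bone marrow after birth. In a clone both programmes have to be set up from a nucleus that was running that of a cumulus cell.

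Levels are log2 signals relative to the 75th percentile of the same array, and values of single animals are listed in the order of animals 1 to 4. A difference is brain minus liver on the log2 scale with its standard error, from limma over 4 arrays per tissue, and a gene was called where the p after Benjamini-Hochberg adjustment was under 0.05. A probe counts as above background where the scanner software marked it well above background. Where no array of a tissue reached that mark, the difference has only a lower bound, given as "at least N-fold" against the dimmest measurable signal of each array of that tissue. Levels of different genes were not set against each other, since each probe has its own brightness, and in whole tissue fewer cells of a type and less RNA per cell cannot be told apart.

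All 8 arrays were scanned in one session, but each tissue lay on a slide of its own, so slide and tissue cannot be told apart. On the brain arrays 62.4% to 63.9% of probes were above background and on the liver arrays 53.6% to 56.4%, with 75th percentiles of the signal of 403 to 467 and 242 to 270.0. Several arrays stood apart in genes of another tissue or region. Liver 1 had raised levels of neuronal genes: the mean level of the 20 neuronal identity genes was -2.27 there, with 18 of 20 above background, against -4.11, -4.22 and -4.21 in livers 2, 3 and 4, with 9 of 20 in each. Livers 1 and 2 had raised levels of skeletal muscle genes, with a mean of 12 muscle genes of 2.67 and 0.57 against -3.70 and -3.85 in livers 3 and 4. Livers of the other groups also differed in this mean. It was -3.64, -3.61, -3.13 and -1.18 in NC livers 1 to 4 and -3.47, -2.49, -1.02 and -1.09 in G20 livers 1 to 4. Brain 1 had a mean of 16 plasma protein genes of -4.03, against -4.70, -4.87 and -4.70 in brains 2, 3 and 4. Brain 2 had a raised level of pituitary genes, with Pomc at 3.64 against -0.55, -0.59 and -0.61 in brains 1, 3 and 4. Brains 1, 2 and 4 had raised signal of Hox genes, which mark hindbrain and spinal cord. Their mean over 12 Hox genes was -3.02, -3.0 and -3.25, against -5.69 in brain 3. It was -6.57 to -5.96 in the NC brains, and among the G20 brains -3.53 in brain 2 and -6.57 to -5.58 in the others. Not all members followed. Hoxb2, Hoxb5, Hoxb7 and Hoxa7 were lowest in brain 3 (-6.27, -6.28, -6.68 and -6.39). Hoxa3, Hoxb6 and Hoxc4 were above background in all 4 CC brains. They were at -4.64, -3.18 and -4.07 in brain 3, against -4.66 to -4.52, -3.38 to -3.02 and -4.90 to -4.15 in the others. Differences are also given without liver 1 where it was the only liver above background or where they moved by over 1.5 times without it.

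**Figure D1:**
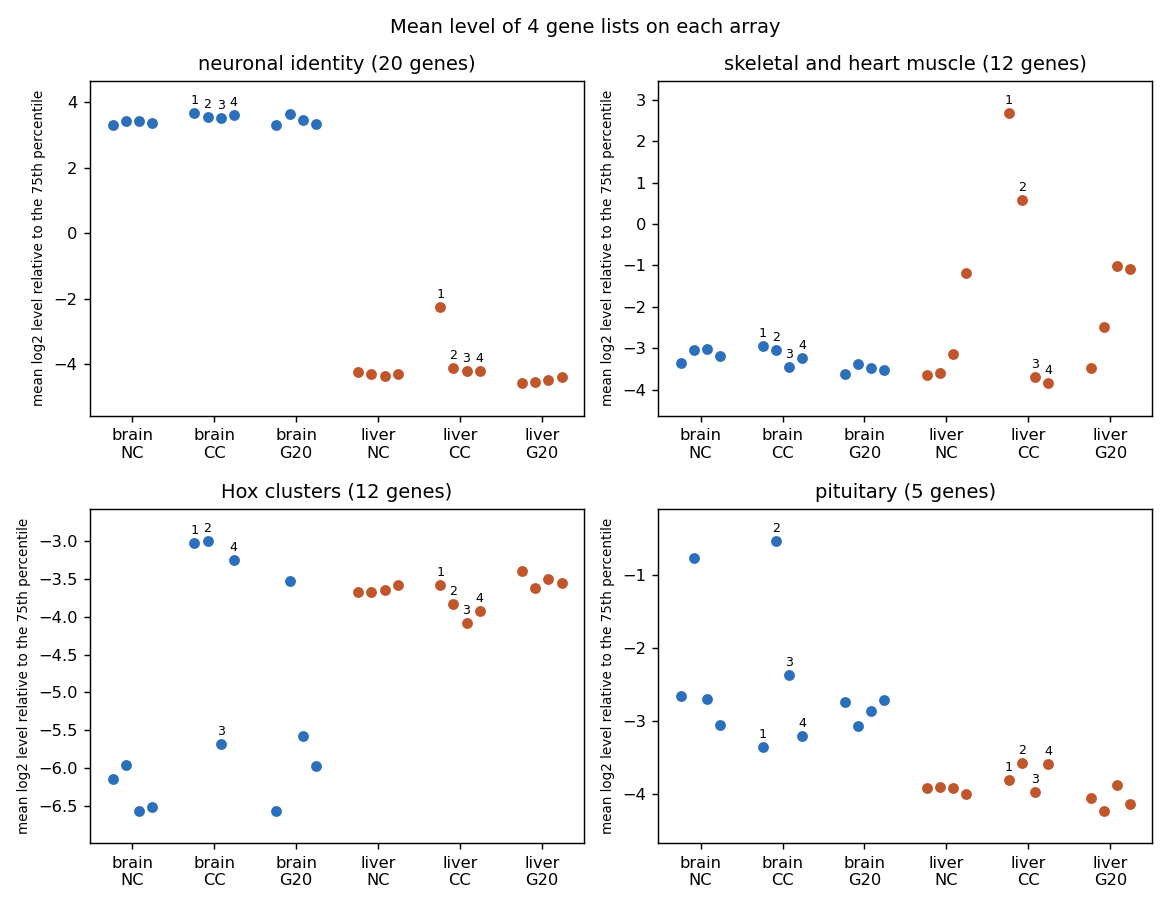
Mean level (log2 relative to the 75th percentile of the array) of 4 gene lists on each of the 24 arrays, by group and tissue, with 1 point per array. Among CC arrays (numbered by animal), liver 1 lies above the other livers in the neuronal list (-2.27), livers 1 and 2 lie above the others in the muscle list (2.67 and 0.57), brain 3 lies below the other CC brains in the Hox list (-5.69) and brain 2 above them in the pituitary list (-0.54).

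Brain and liver differed in most genes. Of 17676 genes tested, 15268 (86.4%) were called, 7768 (43.9%) higher in brain and 7500 (42.4%) higher in liver. A difference of at least 4-fold was called in 6339 genes (35.9%), 3340 (18.9%) higher in brain and 2999 (17%) higher in liver. The lowest array of one tissue lay above the highest of the other in 14738 genes (83.4%). 13139 genes were above background on all 8 arrays, 2120 in all brains and no liver, and 846 in all livers and no brain. The median difference over all genes was 0.03, with quartiles of -1.22 and 1.43, and moved to -0.34 when arrays were centred on their median, to 0.20 when centred on the probes above background on all 8 arrays, and to 0.70 in the deposited matrix values. Every list count below is to be read against these shares.

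**Figure D2:**
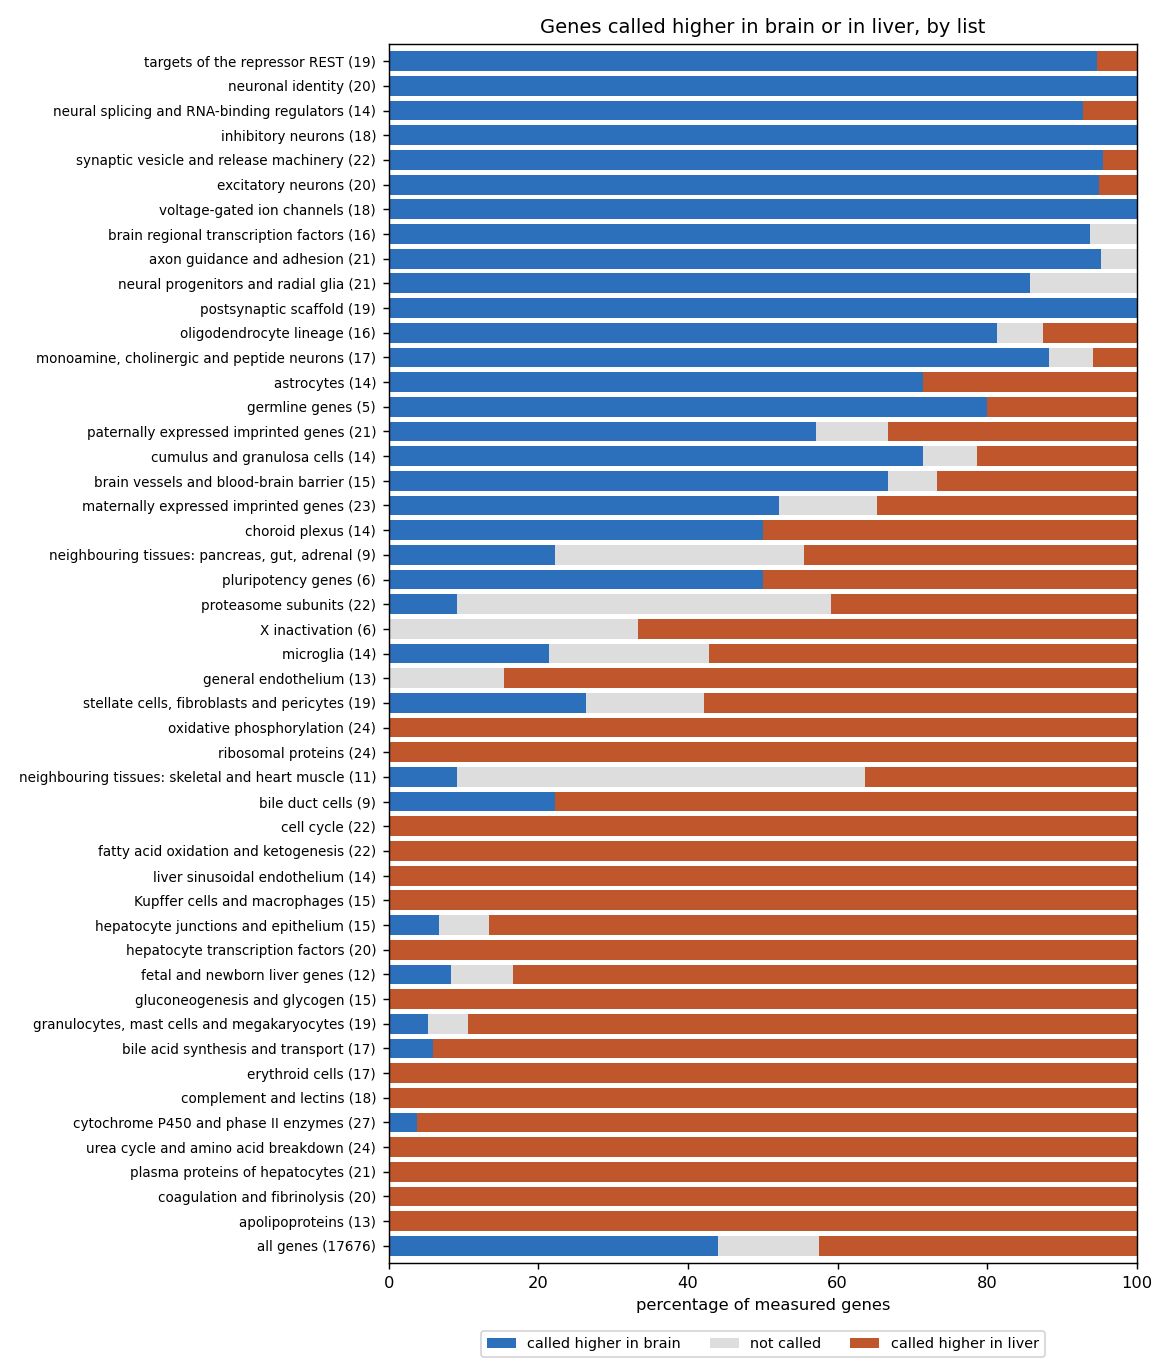
Percentage of the measured genes of each list that were called higher in brain, called higher in liver or not called (limma adjusted p under 0.05), with the number measured in brackets and all 17676 genes as the lowest bar. Neuronal lists lie almost wholly on the brain side and hepatocyte and blood-cell lists on the liver side, while all genes divide into 43.9% and 42.4%.

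The 10 genes with the highest differences toward brain among those above background on all 8 arrays were Stmn4, Mapt, Kif5a, Fabp7, Cnih2, Scn3b, Srcin1, Rtn1, Ppp2r2b and Slc32a1, with differences of 7.95 to 9.75. Mapt, the microtubule-binding protein tau, was at 5.36, 4.88, 5.52 and 5.63 in the brains and at 0.13, -4.03, -4.31 and -3.61 in the livers, a difference of 8.30 ± 0.88 (limma adjusted p = 1.42e-05). Slc32a1, which loads inhibitory transmitters into vesicles, was at 5.93, 5.74, 5.80 and 5.98 in the brains and -0.18, -1.81, -2.84 and -3.53 in the livers, a difference of 7.95 ± 0.61 (limma adjusted p = 1.39e-06). Both were measurable in every liver and highest in liver 1, and without liver 1 the differences were 9.33 ± 0.22 and 8.59 ± 0.34. Without liver 1 the difference also rose from 9.75 to 11.14 ± 0.20 for Stmn4, from 8.27 to 9.02 ± 0.11 for Kif5a and from 8.26 to 9.24 ± 0.16 for Fabp7. Those of Cnih2, Rtn1 and Scn3b became 8.90 ± 0.14, 8.96 ± 0.16 and 8.82 ± 0.19. The 5 highest bounds toward brain among genes measured in no liver were those of Kndc1, Adgrb3, B3gat1, Rab9b and Fstl5, at least 272-fold to at least 245-fold. Toward liver the 10 were Fgb, Cyp2d26, Cfb, 1300017J02Rik, Fgg, Rgn, Apom, Serpina1d, Fbp1 and Adh1, with differences of -10.41 to -11.77. Cyp2d26, a cytochrome P450, was at 7.93, 8.22, 8.25 and 8.26 in the livers and -3.26, -3.61, -3.55 and -3.84 in the brains, a difference of -11.73 ± 0.14 (limma adjusted p = 3.35e-11). The 5 highest bounds toward liver were those of Apoa1, Agxt, Serpinf2, Apoa2 and Gc. Apoa1, the main protein of high-density lipoprotein, was at 8.11, 8.09, 8.15 and 8.29 in the livers and above background in no brain, which makes it at least 16278-fold higher in liver.

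Neuronal genes were higher in brain almost without exception. All 20 measured genes of neuronal identity were called and at least 4-fold higher in brain (median difference 7.54; 7.98 and again 20 of 20 without liver 1). Tubb3, the neuronal beta-tubulin, was at 5.91, 5.77, 5.79 and 5.77 in the brains and 0.10, -1.16, -1.47 and -1.54 in the livers, a difference of 6.83 ± 0.32 (limma adjusted p = 4.36e-08). The brains lay close together, and liver 1 lay above the other livers. Stmn2, a protein of growing axons, was at 4.36, 3.58, 3.96 and 4.00 in the brains and -2.08, -5.68, -5.94 and -5.45 in the livers, of which only liver 1 was above background. The fitted difference of Stmn2 was 8.76 ± 0.77 with liver 1 and 9.66 ± 0.19 without it, and without liver 1 it was above background in no liver and at least 620.3-fold higher in brain. Map2, the dendritic microtubule protein, was at 4.36, 4.34, 4.61 and 4.50 in the brains and -1.47, -2.80, -3.46 and -3.04 in the livers, a difference of 7.15 ± 0.37 (limma adjusted p = 7.68e-08). The list ran from 4.73 for Ncam1, an adhesion molecule, to 9.39 for Nefl, the light neurofilament subunit, which was above background in liver 1 alone and at least 910.2-fold higher in brain without that liver.

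The machinery of the synapse was measured on both of its sides. Of 22 genes of synaptic vesicles and transmitter release, 21 were higher in brain (median 6.53), among them Syt1, the calcium sensor of release, with 8.28 ± 0.47 (at least 384-fold without liver 1), Snap25, a fusion protein, with 8.25 ± 0.49 (at least 337-fold without it), and Syp, a vesicle membrane protein that was at least 114-fold higher in brain. Syn1, a vesicle-tethering protein, was the exception at -1.13 ± 0.21 (limma adjusted p = 0.000613); it was at -0.05, -0.62, -0.72 and -0.47 in the brains and 0.90, 0.48, 0.25 and 1.03 in the livers, and its second probe differed the other way. All 19 genes of the postsynaptic scaffold were higher in brain (median 4.11), among them Shank2, a scaffold protein above background in no liver, at least 1.78-fold higher, although its direction turned with normexp background correction. Dlg4, which encodes the scaffold protein PSD-95, was at -1.03, -1.01, -0.86 and -0.90 in the brains and above background in no liver, at least 19.7-fold higher in brain.

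Excitatory and inhibitory neurons were both represented. Of 20 genes of excitatory neurons 19 were higher in brain (median 5.39), with the glutamate receptor subunit Gria2 highest at 9.45 ± 0.65 (liver 1 alone above background; at least 1177-fold without it) and Slc17a6, a vesicular glutamate transporter, at least 205-fold higher. Cux2, a transcription factor of upper cortical layers, was the exception at -0.67 ± 0.12 (limma adjusted p = 0.000561). All 18 genes of inhibitory neurons were higher in brain (median 6.88). Gad1, which makes the inhibitory transmitter GABA, was at 2.49, 2.50, 2.45 and 2.43 in the brains and -3.80, -5.46, -5.64 and -5.40 in the livers, at least 219-fold higher in brain without liver 1, and the somatostatin gene Sst was highest of the list at 8.50 ± 0.60. Of 17 measured genes of monoamine, cholinergic and peptide neurons 15 were higher in brain (median 3.37). Ddc, which makes dopamine and serotonin from their precursors and is also a liver enzyme, was higher in liver at -2.23 ± 0.26 (limma adjusted p = 3.23e-05), and Slc6a4, the serotonin transporter, was at -0.54 ± 0.34 (limma adjusted p = 0.161). The opioid peptide gene Pdyn had the highest difference at 7.46 ± 0.31 (at least 185-fold without liver 1).

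All 18 measured voltage-gated ion channel genes were higher in brain (median 5.12), as were 20 of 21 genes of axon guidance and adhesion (median 4.27), with Slit1, a repellent guidance cue, at 0.29 ± 0.16 (limma adjusted p = 0.11, and 0.00208 without liver 4). Scn2a, a sodium channel that carries the action potential, differed by 7.33 ± 0.33 (at least 191-fold without liver 1) and the potassium channel gene Kcnd2 by 8.63 ± 0.52, or at least 523-fold without liver 1. Of 16 transcription factors that mark regions of the brain, 15 were higher there (median 4.52) and Pou4f1, with 1 of 2 probes opposite, differed by -0.03 ± 0.25 (limma adjusted p = 0.904); its other probe was used, with 3.63 to 3.76, when any 1 liver was left out. Otx2, of forebrain and midbrain, was at least 22.1-fold and En2, of the midbrain-hindbrain border, at least 88.3-fold higher in brain. Both were above background in each of the 4 brains.

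Regulators of neuronal RNA and targets of the repressor REST, which silences neuronal genes outside neurons, followed. Of 14 neural splicing and RNA-binding regulators 13 were higher in brain (median 7.33), with Elavl2 highest at 9.37 ± 0.82 (at least 996-fold without liver 1) and the muscle and brain splicing factor Mbnl2 lower at -1.13 ± 0.11. Of 19 measured REST targets 18 were higher in brain, all 18 at least 4-fold (median 7.67), and the exception was again Syn1. Scg2, a granin stored in secretory granules, was at 1.11, 0.86, 0.68 and 0.76 in the brains and above background in no liver, at least 65.9-fold higher in brain. Rbfox1, a neuronal splicing factor, was above background in all brains and in liver 1 alone, and its difference was 8.54 ± 0.80 with liver 1 and 9.39 ± 0.42 without it.

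Glial genes were less uniform. Of 21 genes of neural progenitors and radial glia 18 were higher in brain (median 4.26), and none was called higher in liver. Without liver 1 the counts were 16 and 1, and without brain 2 they were 16 and 0. Sox2, a transcription factor of neural stem cells, was at 1.68, 1.62, 1.72 and 1.80 in the brains and above background in no liver, at least 110.0-fold higher. Hes5, a target of Notch signalling, differed by 7.86 ± 0.41. Vim (vimentin, -0.14 ± 0.13, limma adjusted p = 0.33), Hes1 (-0.20 ± 0.14, limma adjusted p = 0.199) and Notch1 (0.01 ± 0.12, limma adjusted p = 0.963), all of them active in many other cell types, did not pass the test, although Hes1 did without liver 1 (-0.34, limma adjusted p = 0.00483). Of 14 measured astrocyte genes 10 were higher in brain (median 2.44), with Mlc1, a membrane protein of astrocyte end-feet, highest at 8.32 ± 0.39 (at least 319-fold without liver 1). The other 4, Glul, Aldh1l1, Apoe and Clu, have known roles in hepatocytes and were higher in liver. Glul, glutamine synthetase, was at 3.56, 3.31, 3.14 and 3.17 in the brains and 4.93, 4.88, 4.79 and 4.90 in the livers, a difference of -1.58 ± 0.11 (limma adjusted p = 5.36e-07). Gfap, the filament of mature astrocytes, did not pass the filter, being above background on all 4 arrays of neither tissue.

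Of 16 genes of the oligodendrocyte lineage 13 were higher in brain (median 3.52). The lineage's transcription factors Olig1 and Olig2 were at least 161-fold and at least 22.3-fold higher, and Gpr17, a receptor of immature cells of the lineage, differed by 8.24 ± 0.44 (at least 350.3-fold without liver 1). Of the myelin genes, Mbp, which also has a transcript made in blood cells, differed by -0.23 ± 0.08 (limma adjusted p = 0.0173), with 1 of 2 probes opposite. For Mobp, a late myelin gene, the probe used here was above background in the livers and not in the brains, while another of its probes was above background in brain.

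Choroid plexus, vessels and immune cells of the brain share genes with the liver. Of 14 choroid plexus genes 7 were higher in brain and 7 in liver, or 7 and 5 without brain 3 (median 0.35, and -0.03 with arrays centred on their median). Ttr, the thyroxine carrier that both choroid plexus and hepatocytes secrete, was at 0.94, 0.77, 0.02 and 0.76 in the brains and 2.45, 2.75, 2.53 and 2.72 in the livers, a difference of -1.99 ± 0.19 (limma adjusted p = 7.65e-06), while Sostdc1 was at least 58-fold higher in brain. Of 15 genes of brain vessels and the blood-brain barrier 10 were higher in brain and 4 in liver (median 1.11). Mfsd2a, a lipid transporter of the barrier, differed by 7.60 ± 0.42 (at least 234-fold without liver 1), and Slc2a1, the barrier's glucose transporter that red blood cell precursors also carry, by -1.55 ± 0.10 (limma adjusted p = 4.81e-07). Of 13 genes common to all endothelium 11 were higher in liver, by 0.48 to 1.76 on the log2 scale, and none in brain (median -0.79). The sign of that median turned in the deposited matrix values (0.38), where the median over all genes was 0.70 in place of 0.03. The list median lay below that of all genes in both.

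Genes of hepatocyte secretion were higher in liver throughout. All 21 measured plasma protein genes (median -9.86), all 13 apolipoproteins (median -11.86), all 20 coagulation and fibrinolysis genes (median -11.12) and all 18 complement and lectin genes (median -8.29) were called higher in liver, all but Ttr at least 4-fold. Afp, alpha-fetoprotein, which the liver makes before and around birth, was at 7.60, 7.63, 7.55 and 7.62 in the livers and -0.83, -1.96, -3.46 and -2.31 in the brains, a difference of -9.74 ± 0.46 (limma adjusted p = 3.89e-08). Alb, albumin, had a level of 7.36 in liver 3, the spots of the other 3 livers having been removed as outliers, and was at -1.36, -2.58, -4.19 and -3.08 in the brains, where brain 1 was highest. Fgb, a fibrinogen chain, was at 8.56 and 8.63 in livers 2 and 4, the others being removed in the same way, and at -1.66, -3.12, -4.58 and -3.35 in the brains. Serpinc1, antithrombin, was at 6.91, 6.49, 6.66 and 6.86 in the livers and above background in no brain, at least 6025-fold higher. Ttr had the smallest difference of the plasma proteins, and Apoe (-2.65 ± 0.14) and Pros1 (-2.13 ± 0.12), which the brain also makes, the smallest of their lists. Brain 1 was the highest brain for Alb, Afp, Fgb and Fgg, and without brain 1 the median of the plasma protein list was -10.18.

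Genes of intermediary metabolism were likewise higher in liver. All 24 urea cycle and amino acid genes were called (median -8.67), with Got1, a transaminase of many tissues, at -1.77, and Agxt, above background in no brain, at least 8661-fold higher. Cps1, which fixes ammonia at the start of the urea cycle, was at 6.11, 6.26, 6.72 and 6.82 in the livers and above background in no brain, at least 3815-fold higher. All 15 genes of gluconeogenesis and glycogen were called (median -5.78). G6pc, which releases free glucose, was at 5.26, 5.34, 5.30 and 5.36 in the livers and above background in no brain, at least 2435-fold higher. All 22 genes of fatty acid oxidation and ketogenesis were called (median -3.62).

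Of 17 bile acid genes 16 were higher in liver (median -7.70). Cyp7a1, the rate-limiting enzyme of bile acid synthesis, was at 2.58, 3.0, 3.67 and 3.60 in the livers and at least 605-fold higher there. Cyp7b1, an oxysterol hydroxylase with a role in brain steroids, went the other way, at -0.04, -0.03, -0.19 and -0.10 in the brains and -3.31, -3.29, -2.71 and -3.01 in the livers, a difference of 2.99 ± 0.14 (limma adjusted p = 3.62e-08). Of 27 cytochrome P450 and conjugating enzymes 26 were higher in liver (median -8.58), and Aldh1a1, which makes retinoic acid, was higher in brain at 0.83 ± 0.26 (limma adjusted p = 0.0134), a call lost without livers 1 and 2 (0.44, limma adjusted p = 0.112), with median scaling (0.45, limma adjusted p = 0.136) and with normexp (0.38, limma adjusted p = 0.0646). Of 12 measured genes of the fetal and newborn liver 10 were higher in liver (median -5.26), among them Cyp3a16, a P450 of the perinatal liver, at least 915-fold, while Lin28b, a regulator of fetal growth, was higher in brain at 0.39 ± 0.15 (limma adjusted p = 0.0299, and 0.0528 to 0.0792 in the 6 single removals other than those of livers 1 and 2).

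The transcription factors behind these programmes were measured too. All 20 measured hepatocyte transcription factors were higher in liver (median -5.03). Hnf4a, a nuclear receptor needed for hepatocyte maturation, was at 1.49, 1.10, 1.38 and 1.31 in the livers and above background in no brain, at least 163-fold higher. Foxa2, which opens liver chromatin in development and is also active in midbrain neurons, was at 3.53, 4.02, 4.03 and 4.10 in the livers and -0.85, -0.56, -1.04 and -0.61 in the brains, a difference of -4.68 ± 0.16. Prox1, used by both hepatoblasts and newborn neurons, had the smallest difference of the list at -1.32 ± 0.09 (limma adjusted p = 8.39e-07).

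The sequences before the start of 4 of these liver genes are shown because each holds the motif GTTAAT, in capitals, and 3 of them also TATAAA, the sequence of the TATA box, in capitals. They are RefSeq promoter windows of GRCm38.p6, from 250 bases before to 50 bases after the annotated start, written 5′ to 3′ on the gene's strand, and were chosen after their values and letters were seen. Alb lies at chr5:90460620-90460919 and Afp at chr5:90490464-90490763, neighbours on the plus strand, G6pc at chr11:101367466-101367765 (plus) and Fabp1 at chr6:71199629-71199928 (plus). GTTAAT begins 32 bases before the start in Alb, 105 in Afp, 221 in G6pc and 107 in Fabp1, and TATAAA 7, 29 and 30 bases before it in Afp, G6pc and Fabp1. In Afp TATAAA lies outside the stretch between 40 and 20 bases before the start in which TATA boxes are counted below.
Alb: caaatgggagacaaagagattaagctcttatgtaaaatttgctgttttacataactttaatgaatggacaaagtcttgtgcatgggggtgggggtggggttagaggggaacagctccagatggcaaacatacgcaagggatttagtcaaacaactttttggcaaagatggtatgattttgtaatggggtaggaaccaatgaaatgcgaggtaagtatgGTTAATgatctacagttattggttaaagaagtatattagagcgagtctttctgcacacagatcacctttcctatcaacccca
Afp: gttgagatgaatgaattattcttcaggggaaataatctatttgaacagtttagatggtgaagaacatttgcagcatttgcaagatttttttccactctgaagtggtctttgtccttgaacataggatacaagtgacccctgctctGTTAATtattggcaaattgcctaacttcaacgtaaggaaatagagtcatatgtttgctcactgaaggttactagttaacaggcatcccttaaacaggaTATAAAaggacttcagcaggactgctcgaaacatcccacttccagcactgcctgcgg
G6pc: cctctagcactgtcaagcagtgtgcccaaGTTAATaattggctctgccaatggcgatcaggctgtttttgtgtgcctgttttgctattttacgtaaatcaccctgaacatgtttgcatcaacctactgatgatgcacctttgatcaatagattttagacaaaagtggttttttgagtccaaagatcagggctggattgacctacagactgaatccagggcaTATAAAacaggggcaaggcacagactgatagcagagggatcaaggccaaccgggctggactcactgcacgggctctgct
Fabp1: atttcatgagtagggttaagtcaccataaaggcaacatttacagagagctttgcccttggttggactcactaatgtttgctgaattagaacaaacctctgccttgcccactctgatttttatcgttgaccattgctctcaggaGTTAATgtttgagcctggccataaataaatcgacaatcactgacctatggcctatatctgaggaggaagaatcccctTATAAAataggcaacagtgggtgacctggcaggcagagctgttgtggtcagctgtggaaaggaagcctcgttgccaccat
Fabp1, which binds fatty acids in hepatocytes, was at 6.54, 6.54 and 6.18 in livers 1, 2 and 3, liver 4 being removed as an outlier, and at -4.34, -6.18, -6.33 and -6.47 in the brains, of which only brain 1 was above background.

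2 promoters of brain genes are shown for contrast, since they hold the cyclic AMP response element TGACGTCA, in capitals, and Scg2 also the reverse complement of TTCAGCACC, the left part of the REST binding site. Scg2 lies at chr1:79439977-79440276 and Sst at chr16:23890795-23891094, both on the minus strand of GRCm38.p6. The response element begins 68 bases before the start in Scg2 and 48 bases before it in Sst.
Scg2: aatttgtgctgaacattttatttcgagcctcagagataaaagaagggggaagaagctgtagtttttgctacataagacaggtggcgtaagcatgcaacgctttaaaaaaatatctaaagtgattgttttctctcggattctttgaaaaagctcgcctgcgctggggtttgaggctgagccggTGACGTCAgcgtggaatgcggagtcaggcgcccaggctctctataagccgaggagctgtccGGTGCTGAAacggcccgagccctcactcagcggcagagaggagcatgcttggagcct
Sst: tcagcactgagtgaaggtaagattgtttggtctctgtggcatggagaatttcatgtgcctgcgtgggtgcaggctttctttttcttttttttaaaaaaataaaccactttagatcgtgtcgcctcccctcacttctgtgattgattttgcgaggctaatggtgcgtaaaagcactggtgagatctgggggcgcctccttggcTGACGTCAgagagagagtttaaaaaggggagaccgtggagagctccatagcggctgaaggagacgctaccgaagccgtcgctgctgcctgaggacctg

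A promoter window was found for 11657 of the 17676 genes tested, 2057 of them at least 4-fold higher in brain and 2111 at least 4-fold higher in liver. Motifs were searched on both strands, apart from the TATA box below. GTTAAT was in 7.06% of the liver set, 4.23% of the brain set and 4.5% of all windows. TATAAA on the gene's strand between 40 and 20 bases before the start was in 3.65% of the liver set and 1.75% of both the brain set and all windows. The HNF4 site CAAAGTCCA was in 1.14%, 0.292% and 0.438%, the element TGACGTCA in 1.28%, 2.97% and 3.08%, the C/EBP site TTGCGCAA in 0.379%, 0.194% and 0.266%, and TTCAGCACC in 0.332%, 0.583% and 0.377% of the liver set, the brain set and all windows. Base composition differed as well: the median GC share was 55.7% in the liver set, 61.7% in the brain set and 60.3% in all windows, and the ratio of observed to expected CpG was 0.441, 0.684 and 0.738. The part of base composition in the motif shares was not tested.

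The livers also held the other cells of a newborn liver. All 17 measured erythroid genes were higher in liver (median -7.86). Alas2, the first enzyme of haem synthesis in red cells, was at 6.88, 6.79, 6.66 and 6.58 in the livers and 1.86, 2.16, 0.99 and 0.44 in the brains, a difference of -5.36 ± 0.34 (limma adjusted p = 3.34e-07). Klf1, the erythroid transcription factor, differed by -9.40 ± 0.20, and Hba-a1, an alpha globin, which has near-identical copies that its probe may also read, had the smallest difference at -2.22 ± 0.14. Of 19 genes of granulocytes, mast cells and megakaryocytes 17 were higher in liver (median -7.25), among them Mpo, myeloperoxidase, at -11.01 ± 0.31, while Cpa3, of mast cells, was higher in brain at 0.42 ± 0.15 (limma adjusted p = 0.0255), a call lost with the animal as a block (0.0551), without brain 1 (0.0547) and without liver 4 (0.0643). Of the liver's own supporting cells, all 15 Kupffer cell and macrophage genes (median -4.22) and all 14 genes of sinusoidal endothelium (median -3.80) were higher in liver. Clec4f, a lectin of Kupffer cells, was at 3.94, 3.91, 3.48 and 3.47 in the livers and above background in no brain, at least 849-fold higher, and Stab2, a scavenger receptor of sinusoids, differed by -6.54 ± 0.30.

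Microglia, the macrophages of the brain, did not stand out against the liver's macrophages. Of 14 measured microglial genes 3 were higher in brain, 8 in liver and 3 were not called (median -0.69). P2ry12, a receptor that marks microglia, was at -2.61, -3.44, -3.45 and -3.60 in the brains and -3.68, -3.17, -3.99 and -3.70 in the livers, a difference of 0.36 ± 0.24 (limma adjusted p = 0.193), and Cx3cr1 differed by -0.08 ± 0.08 (limma adjusted p = 0.365). Fcrls, a microglial Fc receptor-like gene, was highest at 2.26 ± 0.19, and the complement gene C1qc, made by both kinds of macrophage, lowest at -2.97 ± 0.08.

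Mesenchymal and ductal genes fell to both sides. Of 19 measured genes of stellate cells, fibroblasts and pericytes 11 were higher in liver and 5 in brain (median -0.89), with Colec10, of stellate cells, at least 2081-fold higher in liver and the highest difference toward brain, 2.63, for Lhx2, a transcription factor of stellate cells that cortical progenitors also use. Of 9 bile duct genes 7 were higher in liver (median -2.29), while Sox9, which radial glia also use, at 1.14 ± 0.14, and the chloride channel Cftr, at least 1.9-fold, were higher in brain, of which Cftr turned with normexp. Of 15 genes of hepatocyte junctions and epithelium 13 were higher in liver (median -4.77), with the keratin Krt8 at -6.74 ± 0.21. Of 9 measured genes of pancreas, gut and adrenal 4 were higher in liver, 2 in brain and 3 were not called (median 0.14). Gcg, the glucagon gene, was at least 4.19-fold and Pnlip, pancreatic lipase, at least 2.14-fold higher in brain, but with normexp the call of Gcg was lost and the direction of Pnlip turned. Cela1 was at least 51-fold and Fabp2 at least 153-fold higher in liver, and Cpa1, which makes a pancreatic protease, differed by 0.16 ± 0.27 (limma adjusted p = 0.572).

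Many enzymes exist in a brain and a liver form, and 18 such pairs were compared. In 15 pairs the brain form was called higher in brain and the liver form higher in liver, and in all 18 the brain form had the higher difference. In the carnitine palmitoyltransferases, which admit fatty acids to mitochondria or sense them, Cpt1c was at 0.98, 1.19, 1.08 and 0.98 in the brains and -3.21, -3.14, -2.97 and -2.85 in the livers (4.10 ± 0.10), and Cpt1a at 0.43, 0.50, 0.07 and 0.14 and 3.76, 3.68, 3.60 and 3.83 (-3.43 ± 0.12). In the polypyrimidine tract binding proteins, splicing repressors that replace each other when neurons form, Ptbp2 differed by 3.18 ± 0.07 and Ptbp1 by -2.07 ± 0.09. The arginases gave 2.45 ± 0.17 for Arg2 (at least 6.03-fold without liver 1) and at least 1459-fold toward liver for Arg1, and the cadherins 1.81 ± 0.12 for Cdh2 and -4.77 ± 0.10 for Cdh1.

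In the other 3 pairs 1 form was not called, or was called in the opposite tissue. Among the liver forms, Eno1 differed by -0.18 ± 0.17 (limma adjusted p = 0.348) and Tubb6 by -0.42 ± 0.25 (limma adjusted p = 0.143, and 0.0162 with the animal as a block). Of the brain forms, Gys1, the glycogen synthase of muscle and brain, was higher in liver at -0.29 ± 0.11 (limma adjusted p = 0.0288), a call lost without brain 1, 2 or 3 or liver 3 or 4 (0.0533 to 0.0733).

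**Figure D3:**
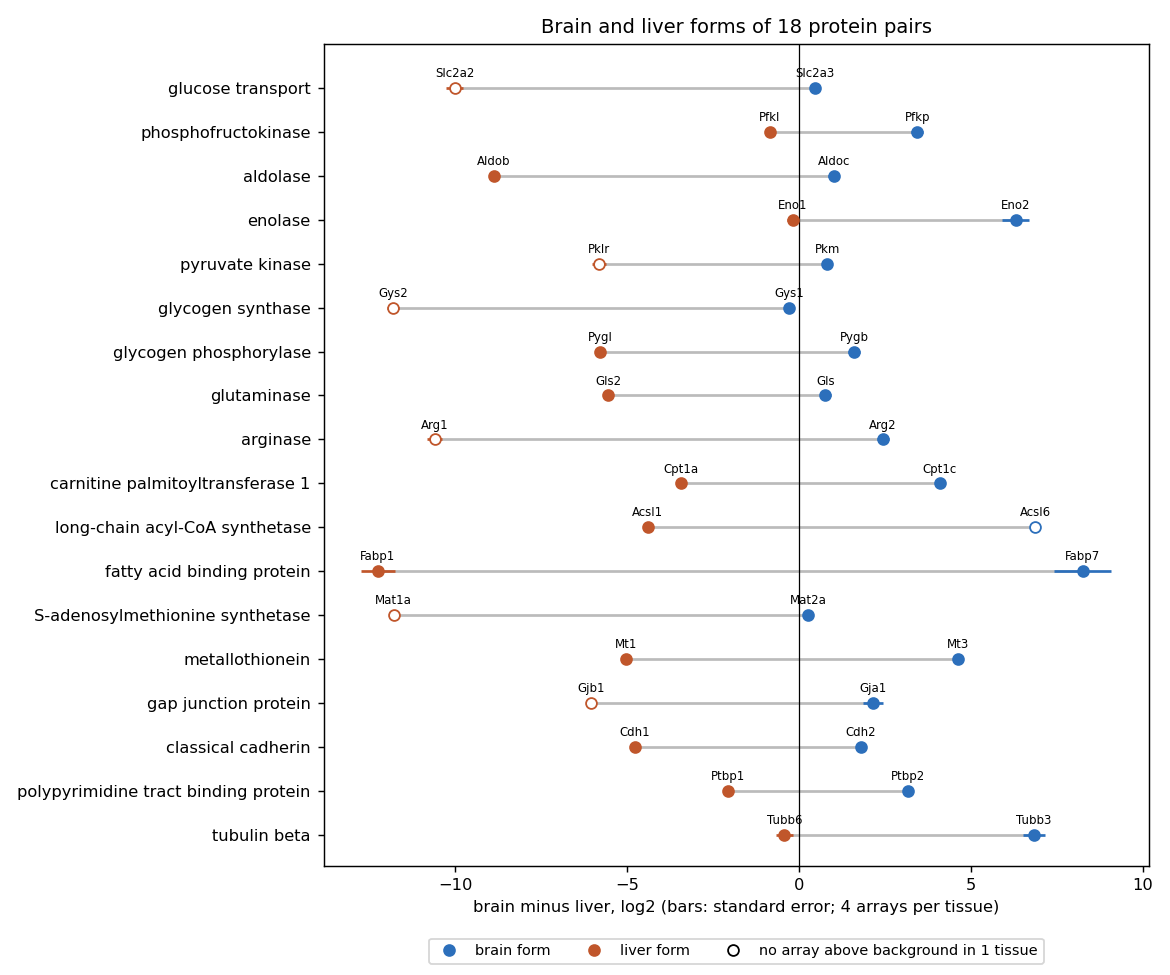
Difference between brain and liver (log2, with the standard error) of the brain form and the liver form of 18 enzyme and structural protein pairs; open symbols have no array above background in one tissue, so that their difference is not fully measured. In every pair the brain form lies to the right of the liver form, and in 15 pairs both were called on opposite sides of 0.

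Genes that all cells use leaned toward liver. All 24 ribosomal protein genes were called higher in liver, by 0.67 to 1.36 on the log2 scale (median -1.0), but with quantile normalization the median was -0.06. All 24 genes of oxidative phosphorylation were called higher in liver (median -0.90, and -0.38 with quantile normalization). Of 22 proteasome subunits 9 were higher in liver, 2 in brain and 11 were not called (median -0.18, but 0.27 with quantile normalization). All 22 cell cycle genes were at least 4-fold higher in liver (median -3.19). Mki67, a marker of dividing cells, was at 6.51, 6.41, 6.33 and 6.11 in the livers and 1.68, 2.02, 1.73 and 1.70 in the brains, a difference of -4.56 ± 0.12 (limma adjusted p = 8.28e-10), and Pcna, the DNA replication clamp, had the smallest difference at -2.20 ± 0.12.

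Imprinted genes, which are read from 1 parental copy and are often misregulated in clones, were found on both sides. Of 21 measured paternally expressed genes 12 were higher in brain and 7 in liver (median 1.82). Usp29 (8.69 ± 0.52) had the highest difference, and Magel2 (7.59 ± 0.35) and Nnat (7.16 ± 0.53) were also higher in brain, and without liver 1 the differences of Usp29 and Magel2 were 9.30 ± 0.12 and 7.98 ± 0.14. Igf2, a growth factor of fetal liver, was at 5.97, 6.15, 6.28 and 6.37 in the livers and 3.13, 3.43, 3.67 and 3.90 in the brains, a difference of -2.66 ± 0.17 (limma adjusted p = 3.2e-07), and Dlk1 differed by -3.09 ± 0.25. Of 23 maternally expressed genes 12 were higher in brain and 8 in liver (median 0.61). H19, a non-coding RNA next to Igf2, was at 7.37, 7.56, 7.65 and 7.59 in the livers and 1.37, 1.88, 1.53 and 1.87 in the brains, a difference of -5.88 ± 0.13 (limma adjusted p = 4.5e-10). Meg3, a non-coding RNA of the Dlk1 domain, differed by 0.34 ± 0.18 (limma adjusted p = 0.103), and by 0.46 without liver 1 (limma adjusted p = 0.0286). Ndn, a neighbour of Magel2 that is likewise paternally expressed, differed by 5.70 ± 0.17. Xist, whose RNA silences one X chromosome, was at 3.07, 3.44, 3.92 and 4.09 in the brains and 4.27, 3.99, 4.41 and 4.16 in the livers, a difference of -0.58 ± 0.22 (limma adjusted p = 0.0312), with 1 of 4 probes opposite and the call lost without brain 1 or 2 or liver 1, 3 or 4 (0.053 to 0.0786).

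Genes of the cell that gave the nucleus were also followed. Of 20 genes of cumulus and granulosa cells, 14 passed the filter, 10 higher in brain and 3 in liver (median 1.76, down to 0.55 without the filter on dim probes). Amh, Fshr, Foxl2, Hsd17b1, Ptgs2 and Lhcgr, among them the defining hormone and receptor genes of these cells, were above background on all 4 arrays of neither tissue. Cyp19a1, which makes oestrogen and is known in brain nuclei, was at -4.06, -4.05, -4.08 and -4.38 in the brains, and Ptx3, a matrix protein of the expanding cumulus, at -0.86, -0.68, -0.65 and -0.75 in the brains, at least 23.6-fold higher than in liver. Of 15 pluripotency genes 6 passed the filter, and Pou5f1, Nanog, Zfp42, Dppa2, Dppa3, Dppa4, Fgf4 and Tcl1 were not among them. Of 16 germline genes 5 passed it, with Tdrd1, of the piRNA pathway, at -1.28, -1.5, -1.21 and -1.02 in the brains and at least 16.1-fold higher there, and Rhox5 at 0.99, 1.43, 0.46 and 0.45 in the livers and -2.23, -2.24, -2.51 and -2.29 in the brains.

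The 4 clones resembled each other within a tissue. The median range over the animals was 0.28 in brain, over 16435 genes above background on all 4 brain arrays, and 0.37 in liver over 14380 genes, and ranges above 4-fold were found in 33 and 139 genes. The root mean square distance between an array and the averaged other 3 of its tissue was 0.252, 0.202, 0.219 and 0.196 in brains 1 to 4 and 0.381, 0.271, 0.263 and 0.285 in livers 1 to 4. The means were 0.217 ± 0.0254 (SD, n = 4) and 0.300 ± 0.0547 (SD, n = 4), and an exact two-sided permutation test that takes the 8 arrays as independent gave p = 0.0286, the smallest that 70 splits allow. The distances within a tissue share arrays, so they are not independent. Paired by animal, the liver had the larger distance in 4 of 4 animals, and the exact two-sided paired test gave p = 0.125, the smallest that 4 pairs allow. With 4 pairs such a test could not reach 0.05, so it does not decide whether the tissues differ in spread. Without liver 1 the difference of the means was 0.0517 (exact permutation p = 0.143), and the single removals of brains 2, 3 and 4 also ended the call (exact permutation p = 0.257, 0.0571 and 0.2). After a removal, arrays of the shortened tissue are set against the mean of fewer arrays than those of the other tissue. This in itself tends to lengthen their distances, so single removals cannot decide how the difference depends on 1 array.

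Several of the widest ranges lay in genes of neighbouring tissue. Acta1, the skeletal muscle actin, was at 5.20, 2.76, -3.34 and -3.24 in the livers, with livers 1 and 2 far above livers 3 and 4, and Myl1 and Tnnc2, a myosin light chain and a troponin, had the next widest ranges (8.31 and 7.62). Of 11 measured muscle genes 4 were called higher in liver and 1 in brain (median -2.16), but without livers 1 and 2 there were 4 and 6 (median 1.47), so that the direction of the list turned. In brain the widest ranges were those of Scrg1, at 1.80, -3.06, 1.5 and 1.62, with brain 2 low, Pomc, at -0.55, 3.64, -0.59 and -0.61, with brain 2 high, and Rrp7a. The pituitary hormone subunit Cga was at -6.49, 1.22, -2.72 and -6.68 in the brains, above background in brains 2 and 3. Without brain 2 the difference of Pomc was 2.88 in place of 3.94 and that of Scrg1 3.52 in place of 2.35. The call of Scrg1 (limma adjusted p = 0.0496) was lost with the animal as a block (limma adjusted p = 0.052) and in the 7 single removals other than that of brain 2 (limma adjusted p = 0.0694 to 0.127). Hoxb5, a Hox gene of the hindbrain and spinal cord, was at 0.68, 0.82, -6.28 and 0.53 in the brains, far lower in brain 3 than in the others, and of 7 measured Hox genes 3 were called higher in liver and none in brain by limma with all 8 arrays, against 2 and 3 without brain 3. The Hox and pituitary genes were picked out after their values had been seen.

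Some genes separated the same animals in both tissues. Among 13036 genes above background on all 8 arrays and without a missing value, 85 had a range above 2-fold in both tissues, and in 51 of these the same animals lay above the tissue mean in brain and in liver, against 0 with the opposite animals above it. Animals 3 and 4 were the higher ones in 28, animals 1 and 2 in 12 and animal 1 alone in 8. Rrp7a, which works in ribosome assembly, was at -2.86, -2.99, 0.87 and 0.87 in the brains and -2.37, -2.53, 0.38 and 0.34 in the livers: low in animals 1 and 2 and high in animals 3 and 4 in both tissues, with a tissue difference of 0.02 ± 1.14 (limma adjusted p = 0.988). Rab7b, a small GTPase of endosomes, was at -1.98, -1.70, -4.00 and -4.20 in the brains and -0.15, -0.33, -2.39 and -2.63 in the livers, higher in animals 1 and 2 in both. Pi4k2b, a lipid kinase, was at -0.91, -0.93, -3.20 and -3.08 and 2.09, 2.28, 0.11 and 0.02, with the same animals higher. Tomm22, of the mitochondrial import pore, was at 0.17, 0.43, 1.88 and 1.90 and 0.71, 1.23, 2.49 and 2.36, and Hspa8, a chaperone, at 4.78, 3.32, 3.53 and 3.62 and 5.25, 4.17, 4.00 and 4.21, highest in animal 1; the other kept probe of Hspa8 had a tissue difference of the opposite sign. Of the 28 and 12 genes that set 2 animals against 2, 5 lay on chromosome 15 between 78678076 and 85889926 (mm8), among them Rrp7a, Tomm22, Cbx7 and Cdc42ep1, and 5 on chromosome 1. Chromosome 19 held 4, and chromosomes 2, 5, 6 and 8 held 3 each. The share of all tested genes on each chromosome was not counted, so whether the genes cluster was not tested. These genes were chosen after their values were seen and carry no test. Animals of one number also had the same position on both slides, and the part of the position was not tested.

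**Figure D4:**
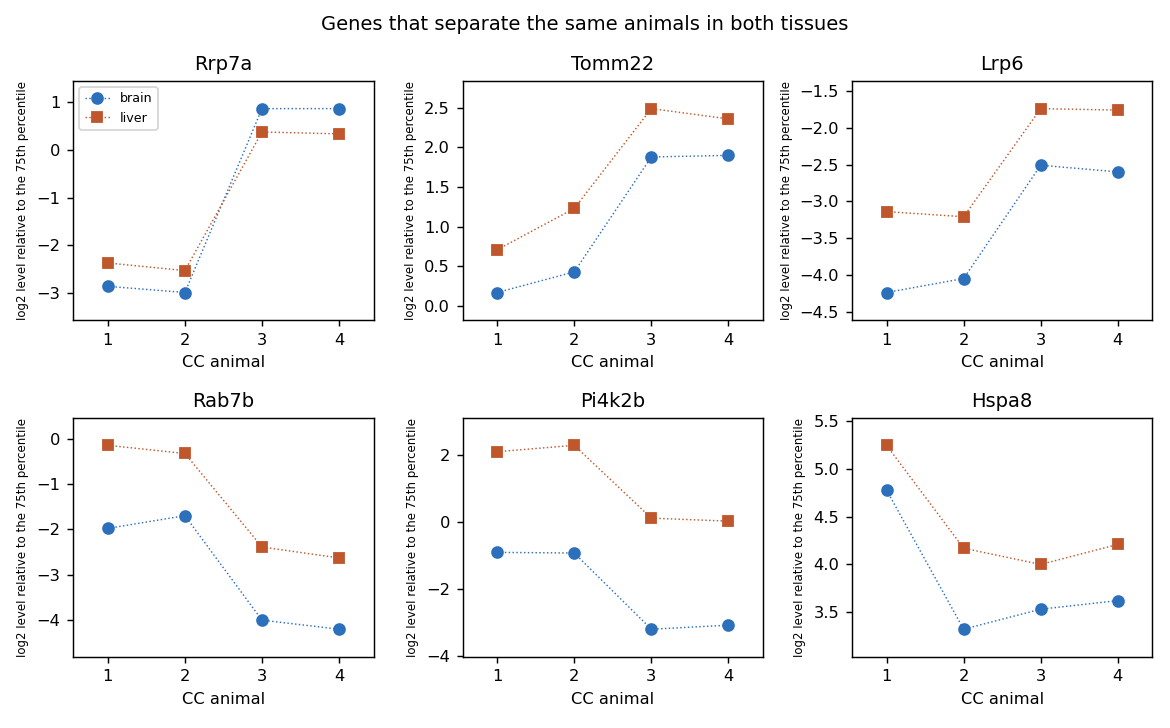
Levels (log2 relative to the 75th percentile of the array) of 6 genes in brain and liver of the 4 CC animals, with 1 point per array and the 2 tissues joined by separate lines. Rrp7a, Tomm22 and Lrp6 are higher in animals 3 and 4 in both tissues, Rab7b and Pi4k2b in animals 1 and 2, and Hspa8 in animal 1.

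The tissue difference of the CC clones was set against that of the NC controls and of the G20 clones, as a difference of differences over 24 arrays and 19712 genes. Of 6461 genes with a tissue difference of at least 4-fold in CC, 6447 had the same sign in NC and 6449 in G20; these counts use the same CC arrays. The size differed in many genes: 10428 (52.9%) were called against NC and 10676 (54.2%) against G20, of which 655 (3.32%) and 855 (4.34%) by at least 4-fold. The CC arrays were scanned 221 days after the first session, in which NC and G20 livers were scanned. The NC and G20 brains were scanned 49 days after it. CC therefore cannot be told apart from its slides and scan session. NC and G20 shared a scan session in each tissue, but each tissue of each group lay on a slide of its own. The 75th percentile of the signal was 814 to 937 on NC brains and 276 to 341 on NC livers, against 403 to 467 and 242 to 270.0 in CC. The share of calls with a higher value in CC was 59.5% against NC and 57.5% against G20, but 48.7% and 46.8% with arrays centred on the probes above background on all of them.

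**Figure D5:**
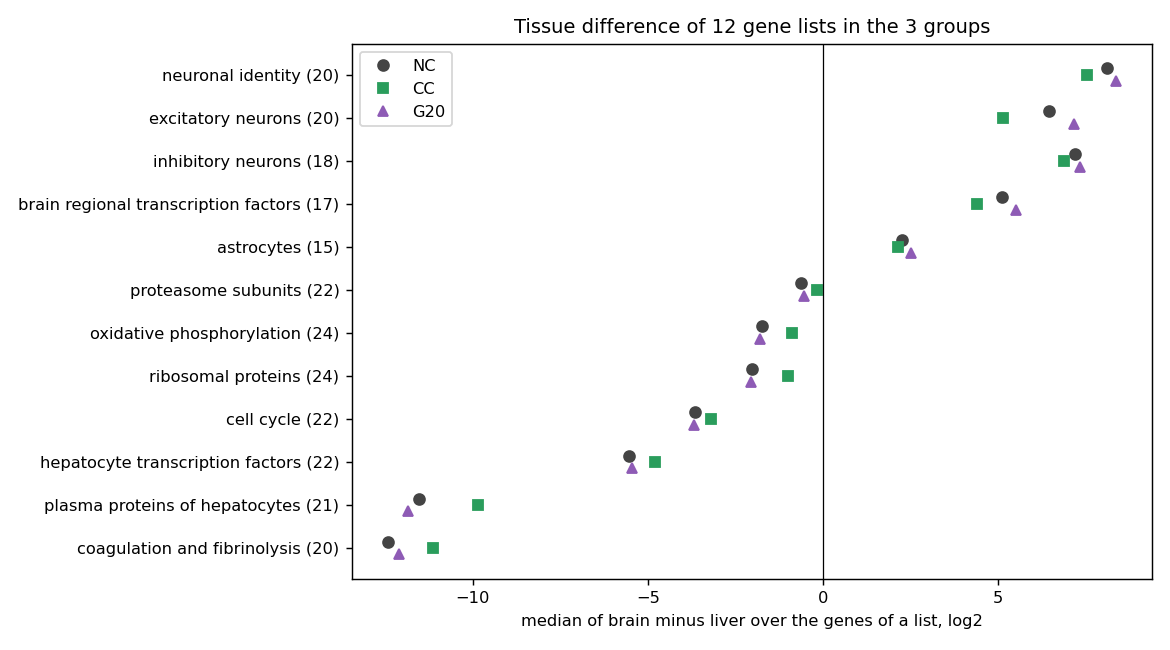
Median tissue difference (brain minus liver, log2) of 12 gene lists in NC, CC and G20, with 1 point per group. The ribosomal protein median is -1.0 in CC, -2.02 in NC and -2.07 in G20, and hepatocyte lists lie nearer to 0 in CC than in NC.

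Ribosomal protein genes differed together. Their median tissue difference was -1.0 in CC, -2.02 in NC and -2.07 in G20, and 21 of 24 were called against NC and 22 against G20, all of them nearer to 0 in CC. With quantile normalization 4 were called higher in CC and 5 lower against NC (median difference -0.06), and 5 and 4 against G20 (0.12). Oxidative phosphorylation gave -0.90, -1.73 and -1.81, with 19 and 20 of 24 called nearer to 0 and 1 in each comparison the other way. Secretory hepatocyte lists went the same way: for plasma proteins the medians were -9.86, -11.54 and -11.83, with 13 of 21 called higher and 1 lower in CC than in NC, and for coagulation -11.12, -12.40 and -12.10, with 14 of 20 called higher and none lower. Of these genes 9 of 21 and 7 of 20 were above background in no CC brain, so that their differences depend on the level of the background in brain. Over the genes above background on all 24 arrays, 5 of 9 plasma protein genes (median difference from NC 2.11) and 1 of 3 coagulation genes (0.29) were called higher in CC and none lower by limma. In the deposited matrix values these differences were nearly gone: the median of the ribosomal list was -0.06 against NC, with 1 gene called higher and 1 lower, that of oxidative phosphorylation -0.11, with 0 called higher and 2 lower, that of 12 plasma protein genes 0.12, with 1 called higher, and that of 10 coagulation genes 0.26, with 2. With quantile normalization the medians of oxidative phosphorylation, plasma proteins and coagulation were 0.06, 0.74 and 0.40, with 8, 9 and 6 genes called higher. In the other direction, neuronal identity gave 7.54 in CC, 8.09 in NC and 8.36 in G20, with 5 of 20 called lower in CC than in NC and 2 higher. The median difference from NC was -0.35 with liver 1 and 0.16 without it, when 5 genes were called lower and 5 higher, and -0.81 to -0.04 with all arrays under the other settings. Against G20 it was -0.80 with liver 1 and -0.24 without it, when 5 were lower and 4 higher. The neuronal mean of the NC livers was -4.25 to -4.37 and that of the G20 livers -4.39 to -4.59.

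The 5 highest called differences in each direction against NC were those of Hoxb5, H1f10, Syt10, Mink1 and Hoxb7 (higher in CC) and of Myh1, Dnajb8, 2410018L13Rik, Far2 and Hamp (lower). Over all groups, 2410018L13Rik was above background on 0 liver arrays and Far2 on 1. H1f10, a linker histone, had a mean of -1.10 in CC brains and 0.76 in CC livers, against -2.74 and 4.91 in NC and -2.75 and 4.89 in G20, so that its tissue difference was -1.86 in CC, -7.65 in NC and -7.64 in G20 (5.79 ± 0.48, limma adjusted p = 1.17e-08 against NC). Syt10, a synaptotagmin, gave -0.84, -6.33 and -5.95, and Mink1, a kinase, -1.52, -6.83 and -6.24. Hamp, hepcidin, the iron hormone of the liver, was above background in no brain of any group, and its mean in the livers was 4.94 in CC, 1.26 in NC and 4.88 in G20. With the background level taken as its level in brain, it had a tissue difference of -11.53 in CC, -8.72 in NC and -12.04 in G20, so that CC minus NC was -2.81 ± 0.50 (limma adjusted p = 9.01e-05) and CC minus G20 0.51 ± 0.50 (limma adjusted p = 0.403). Against G20, Serpina6, a steroid-binding plasma protein, was among the 5 highest and Apoa4, an apolipoprotein, among the 5 lowest: neither was above background in any brain, and the means in the livers were -0.21 in CC, 0.24 in NC and 5.22 in G20 for Serpina6, and -0.94, -1.01 and -5.67 for Apoa4. Hoxb5 and Hoxb7 were high in brains 1, 2 and 4 and low in brain 3, and without brain 3 their differences from NC were 8.09 and 6.44 in place of 6.35 and 4.99. Against G20 the call of Hoxb5 (4.63, limma adjusted p = 0.0462) was lost with quantile normalization, with the trend in the variance, in the fit of 16 arrays and in 14 of 16 single removals, among others (limma adjusted p = 0.0523 to 0.103). Myh1, a muscle myosin, was high in livers 1 and 2, with a call (-3.82, limma adjusted p = 0.0424) that was lost in 13 of 16 single removals, those of each brain among them, and with quantile normalization, normexp, no filter on dim probes and the fit of 16 arrays (limma adjusted p = 0.0505 to 0.118). Without liver 1 the value was -2.36 and without liver 2 it was -3.23. In the deposited matrix values H1f10, Syt10 and Mink1 differed from NC by -0.27, 0.07 and 0.58 (limma adjusted p = 0.804, 0.953 and 0.406), and 1 of the 2 probes of H1f10 had the opposite tissue difference in CC.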

How the data were processed

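RNA of brain and liver of 4 cumulus-cell clones was measured on single-colour Agilent arrays, with 16 further arrays (NC, G20) for comparison. Per the file headers, the authors extracted the intensity values with Agilent Feature Extraction 9.5.3.1, which subtracts background and corrects trends within an array. Values of another kind, the 0 or 1 marks of a spot that is well above background, saturated or an outlier, were set by that program, per the file headers. The deposited matrix holds the authors' processed intensities, whose scaling and centring are not given in the sources used here, and its CC columns differ from the scanner values by a factor of each probe (SD of the log2 ratio 0.627 to 0.657).

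Control spots and outlier spots were left out, spots of a probe averaged, and log2 intensities set relative to the 75th percentile of each array. Probes above background on all 4 arrays of either tissue were kept (26485), and a gene was represented by its brightest kept probe. Groups were compared with limma 3.58.1 (R 4.3.3) and Benjamini-Hochberg adjustment over all genes, in a fit of the 8 CC arrays, or of all 24 for differences between groups. The fit was tested on simulated data. Genes with a spot removed on an array were fitted on the remaining arrays. Of 41174 probes, 23374 were named through accessions, 6733 through current symbols and 2919 through older names; 8148 kept the name in the file.

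Genes named in the text were the 10 with the highest called difference in each direction among those above background on all 8 arrays, the 5 highest bounds in each direction, the first 4 measured and the extreme members of each list, the isoform pairs, the 5 most different in each direction between groups and the 3 widest ranges in each tissue; the genes that separate animals, the Hox and pituitary genes and the printed promoters were chosen after their values were seen. Some genes that this rule names are not reported here, and isoform pairs with such a gene were left out. Members and lists were chosen with earlier results of these data known.

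Brain and liver of one number were taken as paired because they carry the same source name. Deviations from the group means of same-numbered samples correlated at 0.19, 0.28, 0.23 and 0.23. Those of differently numbered samples correlated at -0.25 (brain 1 with liver 3) to 0.16 (brain 4 with liver 3). Each array is a single hybridisation, and 4 arrays per group limit the precision. Alternatives were other scalings, background correction, filters, probe choice, variance model, the animal as a block, the deposited matrix, each array left out and, chosen after seeing the data, livers 1 and 2 left out together and the spread test paired by animal. In the background alternative (normexp, offset 50), local backgrounds over 10 times the array's median were set to that median, also chosen after seeing the data. Probe coordinates are those of the array files (mm8); promoter windows are from RefSeq (GRCm38.p6).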

Additional observations from a re-analysis of the deposited data

Results flagged for a closer look

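In 189 groups of 4 arrays (the genes whose values are given by animal, and the mean level of each list), 30 had an array whose gap to the nearest other was unusually large for the range; chance gives about 1 in 20, but some of these genes were named because an array stood apart and list means overlap with their own genes, so this count is no test. Liver 1 accounted for 11 of them, brain 1 for 7 and brain 2 for 5.

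Liver 1 was highest for Mapt (0.13), Stmn2 (-2.08), Gad1 (-3.80) and Hspa8 (5.25), and for the mean levels of the lists of neuronal identity (-2.28 over the genes tested), excitatory neurons (-3.87), REST targets (-3.42), neural splicing regulators (-1.37) and astrocytes (0.23). It was lowest for Cyp2d26 (7.93) and Foxa2 (3.53). Brain 1 was highest for Apoa1 (-5.29), Fabp1 (-4.34), Serpinc1 (-5.27), G6pc (-5.72), P2ry12 (-2.61) and Tubb3 (5.91), and lowest for the mean of general endothelium (-0.38). Apoa1, Serpinc1 and G6pc were not above background in any brain.

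Brain 2 was highest for Pomc (3.64) and Mki67 (2.02) and lowest for Scrg1 (-3.06) and for the means of the postsynaptic scaffold (0.96) and germline genes (-0.40). Brain 3 was lowest for Hoxb5 (-6.28) and for the mean of the choroid plexus list (-1.52). Brain 4 was lowest for Cyp19a1 (-4.38). Liver 2 was highest for Cyp19a1 (-5.16) and the germline mean (-1.43) and lowest for Ptx3 (-5.82), and liver 4 was lowest for the mean of monoamine, cholinergic and peptide neurons (-3.57).

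The tissue difference was called different between groups by limma over 24 arrays for the following genes. Against NC it was higher in CC by 6.35 for Hoxb5, 5.79 for H1f10, 5.49 for Syt10, 5.31 for Mink1 and 4.99 for Hoxb7. It was lower by the signed values -3.82 for Myh1, -3.17 for Dnajb8, -3.14 for 2410018L13Rik, -2.95 for Far2 and -2.81 for Hamp. Against G20 the values were 6.05 for Serpina6, 5.78 for H1f10, 5.11 for Syt10, 4.72 for Mink1, 4.66 for Hoxb7 and 4.63 for Hoxb5, and -5.33 for Dnajb8, -4.29 for Apoa4, -3.52 for 2410018L13Rik and -2.73 for Far2. Hamp, Serpina6 and Apoa4 were above background in no brain of any group, and the call of Hoxb5 against G20 was lost in most alternatives (limma adjusted p = 0.0523 to 0.103). Over all groups, 2410018L13Rik was above background on 8 brain and 0 liver arrays and Far2 on 10 and 1. The differences of both therefore also depend on the level of the background. CC cannot be told apart from its scan session and slides in these differences.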

How the results depend on the processing

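The count of 15268 genes called, of 17676, stayed within 1.5 times under every scaling, probe choice and variance model tried. It was 23232 of 27573 without the filter on dim probes (84.3%, against 86.4%). The count of 6339 at least 4-fold was 3731 with normexp and 3139 of 13176 genes with only probes above background on all arrays. Single removals gave 14949 to 15304 called and 6307 to 6429 at least 4-fold. The replicate block (animal number) gave 15357 and 6340, and among the genes named in the text it ended the calls of Cpa3 and Scrg1, added calls of Hspa8, Lrp6, Rab7b, Tomm22 and Tubb6 and changed no other. The share of calls higher in brain was 50.9% and became 66.4% in the matrix values. The tissue difference against NC gave 942 calls in the matrix values (10428 otherwise), and 72.5% of calls were higher in CC with normexp. Against G20 there were 123 calls in the matrix values, in place of 10676 of 19712 genes. With only probes above background on all arrays there were 7031 calls among 12915 genes, a smaller set. Single removals gave 9818 to 10475 against NC and 10151 to 10675 against G20. The larger spread of the livers (0.0829) was 0.0577 with quantile normalization (exact permutation p = 0.0857) and 0.0473 with normexp (exact permutation p = 0.114). It was 0.0517 to 0.122 in single removals, which in themselves tend to lengthen the distances of the shortened tissue. With the replicate block, the same 0.0829 had an exact paired p of 0.125, the smallest that 4 pairs allow. The CpG ratio of liver promoters was 0.328 at 8-fold. Direction turned with normexp for Cftr (-0.34), Cyp19a1 (-0.29), Pnlip (-0.21) and Shank2 (-0.40), in the matrix values for Clu (0.33), Cux2 (0.29), Gys1 (0.94), Mbnl2 (0.54), Mbp (0.73) and Prox1 (0.12), and with the mean of all probes for Mbp (1.75) and Syn1 (2.37). In the matrix values the group difference turned for Dnajb8 (3.65) and H1f10 (-0.27) against NC and for H1f10 (-0.23), Hoxb5 (-6.55), Hoxb7 (-2.43) and Syt10 (-0.28) against G20. The cause of these changes was not tested. Signal over background limits genes with no array above it in a tissue to a bound.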
